A study of Mus musculus with 8 samples.

Results

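The mouse major histocompatibility complex (MHC) was examined as 345 windows of 1 kb on chromosome 17, between 33.9 and 36.2 Mb of mm10. A window was taken when it held 3 or more CpGs, the CG dinucleotides at which cytosine is methylated, with at least 10 reads in each of 8 mice. These 345 windows held 4629 CpGs and came from 87866 such windows on all autosomes. The choice used position and coverage and no methylation value. Of the 14796 CpGs of the region listed for any mouse, 4868 reached 10 reads in all 8, and 4629 of those fell into the windows.

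DNA methylation had been measured by enhanced reduced representation bisulfite sequencing, a method that sequences CpG-rich restriction fragments after unmethylated cytosines have been converted. The cells were hematopoietic stem cells of C57BL/6 mice, taken from bone marrow by a sort for Lin-, c-Kit+, Sca-1+, Flk2-, CD150+ and CD48- cells. The 4 knockout mice (numbers 25, 28, 45 and 46) carried loxP-flanked Atg12 with Mx1-Cre, and the 4 control mice (numbers 1, 34, 36 and 37) are described as Atg12flox/flox in the design text but as wild type in their genotype labels, which leaves their alleles unsettled. All 8 mice had received poly(I:C) at 4 weeks of age, 2 to 3 months before the cells were taken. Mx1-Cre is driven by an interferon-responsive promoter, so poly(I:C) switches it on in blood cells and also in other interferon-responsive tissues. The product of Atg12 resembles ubiquitin and is joined to Atg5, a step in building autophagosomes. The comparison asked whether methylation of the region differed between stem cells with and without Atg12. All mice carry the poly(I:C) treatment, so an effect of the treatment itself is in both groups.

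The MHC holds the class I genes, whose products show peptides from inside the cell to CD8 T cells, and the class II genes, whose products show peptides from outside the cell to CD4 T cells. Between them lie the class III genes and the genes of tumor necrosis factor and the lymphotoxins. Class I genes are active in nearly all nucleated cells and are raised by interferon, while most class II genes are used by professional antigen-presenting cells. In mammalian genomes most CpGs are methylated, and dense clusters of CpGs at the starts of genes are usually not.

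Promoters with low and with higher levels are shown, with the CpGs behind each level. Each is the 250 bases before a transcription start in the RefSeq promoter table for GRCm38.p6, which is the mm10 build, printed 5′ to 3′ on the strand of the gene. Capitals mark the CpGs measured in all 8 mice. The first 4 are promoters of class I genes and of lymphotoxin beta at which every measured CpG was below 3%, and the last pair are promoters in which measured CpGs were methylated.

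H2-K1, chr17:34000348-34000597, strand -: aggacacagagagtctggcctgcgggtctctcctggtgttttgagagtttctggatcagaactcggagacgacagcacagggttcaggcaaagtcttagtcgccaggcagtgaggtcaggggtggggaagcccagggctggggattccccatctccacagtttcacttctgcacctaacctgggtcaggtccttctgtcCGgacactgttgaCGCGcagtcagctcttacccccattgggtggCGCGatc
H2-D1, chr17:35262844-35263093, strand +: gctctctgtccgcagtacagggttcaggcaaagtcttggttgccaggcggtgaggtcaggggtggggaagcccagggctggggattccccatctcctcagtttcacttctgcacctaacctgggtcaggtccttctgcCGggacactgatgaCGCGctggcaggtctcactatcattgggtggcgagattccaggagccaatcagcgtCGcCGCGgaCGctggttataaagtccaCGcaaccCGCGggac
H2-Q6, chr17:35424600-35424849, strand +: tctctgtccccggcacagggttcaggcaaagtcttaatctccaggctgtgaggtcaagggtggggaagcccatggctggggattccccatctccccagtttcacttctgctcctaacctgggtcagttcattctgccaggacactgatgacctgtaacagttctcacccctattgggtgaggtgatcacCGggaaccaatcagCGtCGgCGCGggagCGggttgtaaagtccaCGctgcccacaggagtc
Ltb, chr17:35194257-35194506, strand +: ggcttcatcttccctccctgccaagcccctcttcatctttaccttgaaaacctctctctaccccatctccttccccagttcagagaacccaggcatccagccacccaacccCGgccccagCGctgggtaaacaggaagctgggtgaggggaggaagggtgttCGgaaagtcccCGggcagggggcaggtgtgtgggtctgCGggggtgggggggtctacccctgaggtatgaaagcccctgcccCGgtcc
Slc44a4, chr17:34914216-34914465, strand +: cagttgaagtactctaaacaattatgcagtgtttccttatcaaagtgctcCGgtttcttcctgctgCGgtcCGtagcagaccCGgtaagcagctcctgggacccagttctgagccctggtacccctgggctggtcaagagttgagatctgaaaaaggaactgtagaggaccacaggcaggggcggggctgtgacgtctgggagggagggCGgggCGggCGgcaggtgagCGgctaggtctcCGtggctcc
Ddr1, chr17:35702045-35702294, strand -: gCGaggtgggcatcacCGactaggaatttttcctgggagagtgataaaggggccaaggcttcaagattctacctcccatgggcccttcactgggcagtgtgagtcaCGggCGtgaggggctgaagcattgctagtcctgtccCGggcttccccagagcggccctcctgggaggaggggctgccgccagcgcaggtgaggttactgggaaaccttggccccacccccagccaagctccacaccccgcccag

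In the promoter of H2-K1, a classical class I gene, the 5 measured CpGs averaged 0.0543% over the 8 mice. The 10 measured CpGs of H2-D1, the other classical class I gene of this haplotype, averaged 0.0530%. In the nonclassical class I gene H2-Q6 the 7 measured CpGs averaged 0.474%, and in Ltb, the membrane-bound partner of lymphotoxin alpha, 6 CpGs averaged 0.564%. The 9 measured CpGs of Slc44a4, which encodes a membrane transporter of the choline transporter-like family, instead ranged from 56.8% to 86.4%. Ddr1, a receptor tyrosine kinase for collagen, had 5 measured CpGs between 9.07% and 64.4% before this one of its starts, and 12 measured CpGs with a mean of 0.398% before another. All 1130 measured positions that fell into promoter sequences of the region read CG there.

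The 300-base promoters of the table, which run from 250 bases before to 50 bases after a start, were searched on both strands for 4 short motifs. CCAAT, the CCAAT box, was in 19 of the 22 promoters of H2 genes (86.4%), against 38.1% of all 20084 promoters and 41.7% of the 151 promoters of the region. TATAAA, the TATA box, was in 7 of the 22 (31.8%), against 12.7% of all. GGGCGG, the core of the GC box, was in 1 of the 22 (4.55%), against 47.0% of all and 49.7% of the region. A pair of GAAA blocks with any 2 bases between them, a pattern of interferon response elements, was in 2 of the 22 (9.09%), against 3.38% of all. These are matches of letters within the window, several promoters belong to the same gene, and the class I promoters resemble each other in sequence.

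Methylation levels of the MHC windows were either very low or high. Over the 8 mice, 125 of 345 windows (36.2%) had a mean level under 5%, 150 (43.5%) were over 80%, and 48 (13.9%) lay between 20 and 80%. Across all autosomal windows 27.9% were under 5% and 53.6% were over 80%. The median level was 53.1% in the region and 85.5% over all windows. Windows of the region also held more CpGs, with a median of 7 against 5 over all windows. The part of CpG number in the lower median level was not tested. A window's level is a share of reads from many sorted cells, so it does not tell whether some cells or some copies carry the mark.

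**Figure D1:**
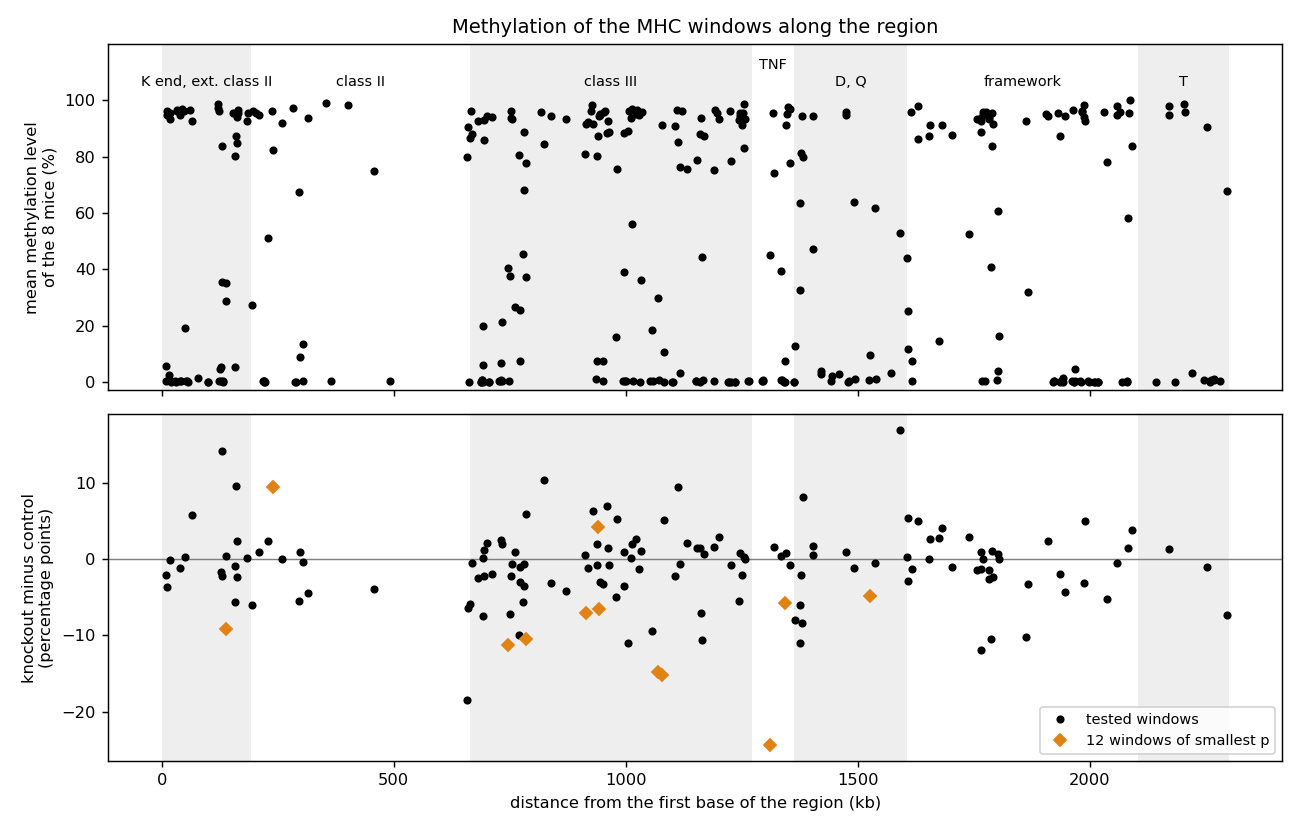
Upper panel, mean methylation level of the 8 mice (%) for each of the 345 windows against distance from the first base of the region (kb), with the 7 segments shaded in turn. Lower panel, mean of 4 knockout mice minus mean of 4 control mice (percentage points) for the 156 tested windows, with the 12 windows of smallest p as orange diamonds; most levels are near 0 or above 80%, and the lowest diamond is the window between Lta and Nfkbil1 at -24.4 points.

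Low levels went with many CpGs and with gene starts. Of the 73 windows with 20 or more measured CpGs, 70 were under 10% and 1 was over 80%, while 126 of the 205 windows with 3 to 9 CpGs were over 80%. Of the 125 windows under 5%, 61 held a measured CpG of a promoter, and of the 64 windows over 95% none did. At the minimum of 3 CpGs, the 67 windows with exactly 3 CpGs had a median of 93.2%, and the 93 windows with 2 CpGs, left out by the rule, had a median of 89.1%. In all, 279 of the 345 windows had CpGs inside a protein-coding gene, and 35 had no such gene within 5 kb.

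**Figure D2:**
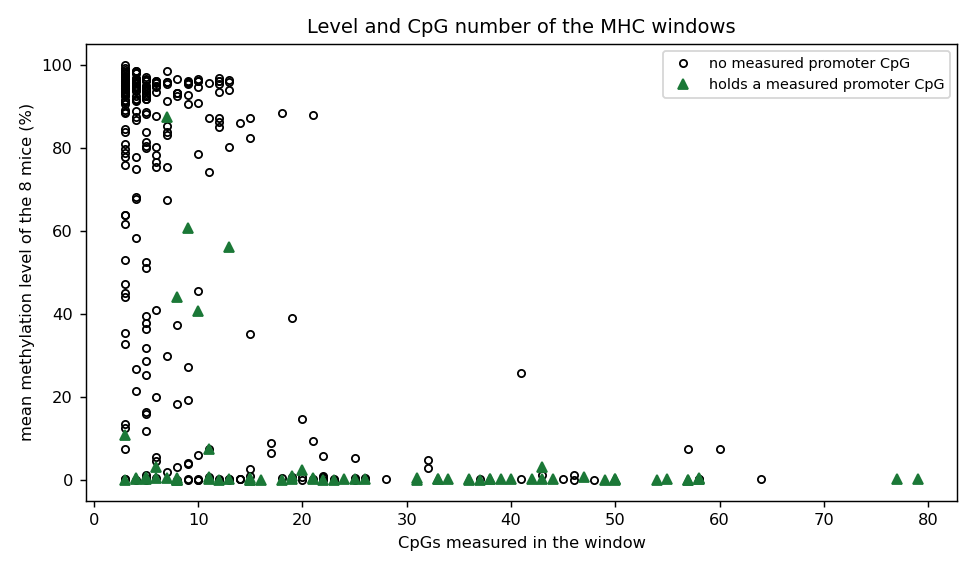
Mean methylation level of the 8 mice (%) against the number of CpGs measured, for each of the 345 windows, with green triangles for windows that hold a measured promoter CpG. Of the 73 windows with 20 or more CpGs, 70 lie under 10%, and windows over 80% have few CpGs.

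Start sites gave the same picture. Within 500 bp of 102 start sites of the region, belonging to 75 genes, 3 or more CpGs were measured, and 94 of these start sites (92.2%) were under 5%, against 90.4% of 12311 start sites over all autosomes. At 20% or more stood 6 of the 102 (5.88%), against 6.41% over all autosomes. They belonged to Cdsn, which encodes an adhesion protein of the skin barrier, at 88.0%, Tnxb, an extracellular matrix protein, at 80.4%, 1 start of Ddr1 at 58.7%, Slc44a4 at 56.1%, Pou5f1, the pluripotency factor Oct4, at 39.5%, and Col11a2, a cartilage collagen, at 24.1%. Below 20% but above 5% were Mpig6b, an inhibitory receptor of megakaryocytes and platelets, at 17.9%, and a further start of Ddr1 at 16.0%.

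Among 34 genes picked by name, the 23 H2 genes and 11 antigen-processing and TNF-cluster genes, 21 had a window overlapping the gene or the 1 kb around it. The window with the most CpGs was under 5% for 16 of these 21 genes and over 80% for 1. The 13 without a window were Tnf, Lta, Aif1, Lst1, H2-Aa, H2-Eb1, H2-Eb2, H2-Ob, H2-DMb2, H2-T24, H2-T23, H2-T-ps and H2-T3.

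**Figure D3:**
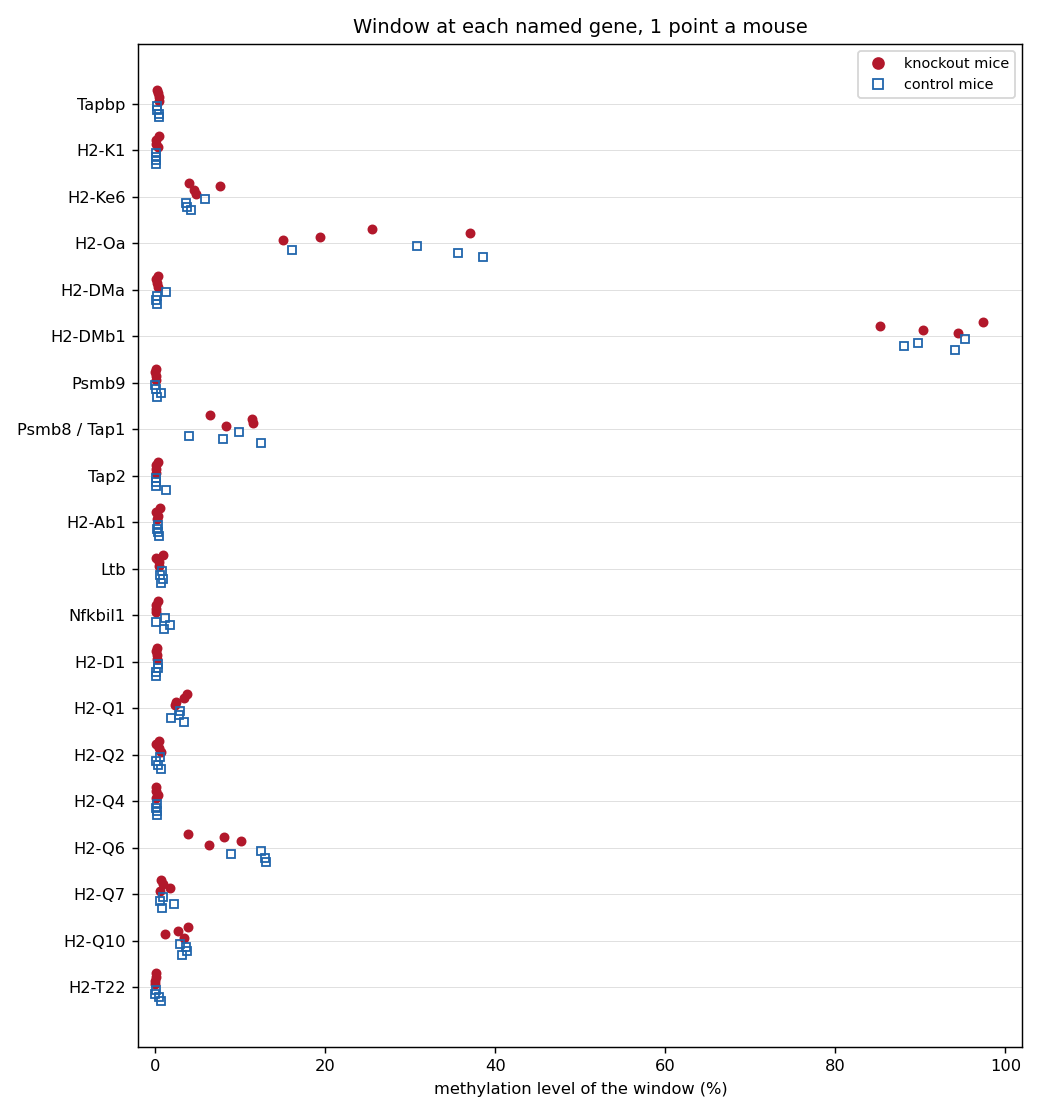
Methylation level (%) in each of the 8 mice for the window with the most CpGs at each named gene, from the K end at the top to the T genes at the bottom, with filled circles for knockout and open squares for control mice. Most windows are near 0 in every mouse, H2-DMb1 is above 80%, and the H2-Oa window spreads widely in both groups.

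The classical class I genes were unmethylated at their starts in every mouse. The H2-K1 window (chr17:34000001-34001000) had 34 CpGs and a mean of 0.154%, with the highest mouse at 0.438%. At H2-D1 (chr17:35263001-35264000) 55 CpGs averaged 0.170%. The nonclassical class I genes of the Q cluster stood at 0.135% for H2-Q4, 0.401% for H2-Q2, 1.04% for H2-Q7, 2.83% for H2-Q1, 3.05% for H2-Q10 and 9.44% for H2-Q6. H2-T22, a nonclassical class I gene recognised by gamma delta T cells, had 0.143%. The Q and T genes are near-identical copies in places, and the handling of reads that match several copies was not given in the sources used here. Levels of single Q genes are therefore uncertain.

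Class II genes were measured unevenly. H2-Ab1, the beta chain of the classical class II molecule I-A, had 58 CpGs at 0.292% (chr17:34264001-34265000), whereas its partner H2-Aa had no CpG measured in all mice. H2-Eb1, the E beta chain, had 4 single CpGs between 92.9% and 96.5%. They lie inside the gene, at 34312171 to 34314331, while the gene starts at 34305867. H2-DMb1, a subunit of the class II peptide exchange factor, had a window of 5 CpGs at 91.8%, 6468 bp from the nearest listed start site. The window chosen for H2-DMa, 0.321%, lies inside Brd2, the gene of a chromatin reader next to it, 909 bp from a start of Brd2. H2-Oa, a subunit of the factor that restrains peptide exchange, had 9 CpGs at 27.2% inside the gene. In the knockouts the H2-Oa window averaged 24.2% ± 9.56 (SD, n = 4 mice) and in control mice 30.2% ± 9.997, a difference smaller than the spread between mice (adjusted p = 0.928, quasi-binomial model with moderated dispersion).

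The peptide-processing genes were low. Windows at Psmb9, an interferon-inducible proteasome subunit, where the start of Tap1 lies too, and at Tap2, a subunit of the peptide transporter, had 0.126% and 0.252%, and the start of Tapbp, which loads peptide on class I, had 0.0370%. The window chosen for Tapbp, 0.329%, lies at the other end of the gene and over the start of Rgl2. Psmb8, another such proteasome subunit, and Tap1, the other transporter subunit, share a window between them with 17 CpGs at 8.97%. Of the 16 of these CpGs within 1 kb of Psmb8, 14 were at 2.29% or lower, and the starts of Psmb8 and Tap1 themselves had 0.0562% and 0.118%. The knockout mean of the window was 9.41% ± 2.45 and its control mean 8.52% ± 3.55 (SD, n = 4 each), and the window did not pass the test (adjusted p = 0.960, quasi-binomial model with moderated dispersion). The start of H2-Ke6, which despite its name encodes a steroid dehydrogenase, had 0.329%. The window chosen for H2-Ke6, 4.79%, lies outside the gene, at the end away from its start.

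In the TNF cluster, 18 windows lay between the start of Aif1, which encodes a calcium-binding protein of macrophages, and H2-D1, and 8 of them were under 5%. Ltb and Nfkbil1, a gene related to the inhibitors of NF-kappaB, had windows at 0.569% and 0.568%, the second over starts of Nfkbil1 and of its neighbour Atp6v1g2. Tnf itself had no window, but 6 of its CpGs were measured in all mice. The pair inside the gene, at 35200653 and 35200701, averaged 0.282% and 0.718%, and all 4 knockouts were at 0% at both. The other 4 CpGs, within 1 kb outside the gene, averaged 89.7% to 99.2%. Lta had 3 CpGs, 2 of them shared with Tnf, at 89.7% to 99.2%. All of them lie between Tnf and Lta, at the end of Lta away from its start. None of the CpGs in the 250 bases before either start was measured in all mice.

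The segments of the region differed in level. The 50 windows of the class I K end and extended class II had a median of 35.3%, the 29 of class II from H2-Oa 51.1%, and the 129 of class III from Notch4 77.8%. The median was 23.5% for the 18 windows of the TNF cluster, 11.03% for the 26 of the class I D and Q genes, 69.4% for the 78 of the framework genes from Pou5f1, and 1.08% for the 15 of the class I T genes from H2-T24. In every segment the 3 lowest windows were at 0.206% or lower and the 3 highest at 94.4% or higher, so each segment spanned nearly the whole range.

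The 8 mice were sequenced to a similar depth in the region, with a median of 226 to 321 reads per CpG. Listed cytosines ranged from 2038266 to 3366162 per mouse. The median coverage of methylated CpGs divided by that of unmethylated CpGs was lowest in control 34 (0.257) and knockout 25 (0.340) and reached 0.736 in control 1. Listed cytosines on chromosome Y were 8.52 ± 0.472 per 10000 in knockout mice and 1.45 ± 0.286 in control mice (SD, n = 4 each), without overlap, so genotype and sex chromosome content cannot be told apart. The lowest windows at Kit and Procr, genes of the stem cell surface, had 0.130% and 0%, and those at the myeloid genes Elane and Mpo had 90.6% and 93.9%. Flt3, whose product the sort excludes, and the erythroid gene Klf1 were as low as Kit, at 0.0990% and 0.471%, so these levels do not identify the cells.

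Between genotypes, the mean over the 345 windows was similar. It was 47.8%, 48.3%, 49.1% and 48.6% in the 4 knockouts and 49.5%, 47.7%, 49.3% and 49.6% in the 4 controls. The groups overlapped, since control 34 was the lowest of all mice. The knockout mean was 48.5% ± 0.508 and the control mean 49.0% ± 0.871 (SD, n = 4 each), so the knockout minus control difference was -0.584 percentage points. Without control 34 it was -1.02 points and the groups no longer overlapped, and without knockout 25 it was -0.382 points and without control 37 -0.386 points. Over all autosomal windows the means were 58.7% and 58.9%, a difference of -0.135 points, again with control 34 lowest. There too the groups did not overlap once control 34 was left out. The knockouts were at 58.1%, 58.9%, 59.2% and 58.8% and the other controls at 59.5%, 59.4% and 59.5%. No test was run on the mean of the MHC windows, because it is a score over chosen windows.

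Of the 7 segments, only the TNF cluster had segment means that did not overlap between the groups. They were 39.6%, 39.8%, 40.2% and 38.5% in knockout mice and 40.7%, 41.3%, 40.9% and 40.7% in control mice. The means were 39.5% ± 0.745 and 40.9% ± 0.276 (SD, n = 4 each), and leaving out any 1 mouse gave a difference between -1.64 and -1.06 points. This difference came from 1 window, between Lta and Nfkbil1, which is described below. Without it the other 17 windows averaged 39.9% ± 0.547 in knockout mice and 39.96% ± 0.706 in control mice, a difference of -0.0522 points with overlapping mice. In the other 6 segments the mice of both groups overlapped, and the largest difference among these was -1.17 points, in class II. It was -0.627 points without knockout 25 and -1.66 points without knockout 45. In class III the difference was -0.807 points, and without control 34 it was -1.24 points. The mice of class III no longer overlapped then, which also held over all autosomal windows.

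Each window with a mean level of 5 to 95% was tested with a quasi-binomial model of methylated and unmethylated reads, fitted to all 40021 such autosomal windows. Of the 345 MHC windows 156 were in that range. None of the 156 passed an adjusted p of 0.05, and over all autosomes 0 of 40021 windows (0%) passed. At an unadjusted p under 0.05 stood 16 of the 156 (10.3%), 13 lower and 3 higher in the knockouts, against a background of 6.5% of all tested windows, 4.4% lower and 2.1% higher. With edgeR 0 windows were called, and an unadjusted p under 0.05 was reached by 9 MHC windows (5.77%) against 3.81% of all windows. With limma on log2 ratios 0 windows were called, and these numbers were 10 (6.41%) and 4.83%. With no limit on the mean level the share in the MHC was not above that of all windows. It was 21 of 344 MHC windows (6.10%), against 6.55% of all windows. Leaving out knockout 45, control 34, or knockout 25 and control 34 together brought 11, 29 and 6 windows past the threshold elsewhere on the autosomes and none in the MHC.

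The groups did not overlap in 8 of the 156 windows with the knockouts lower (5.13%, against a background of 2.01%) and in 2 with the knockouts higher (1.28%, against 1.48%). By segment, the 16 windows with an unadjusted p under 0.05 were 9 of 71 in class III, 2 of 6 in the TNF cluster, 2 of 12 in class II, 2 of 13 at the D and Q genes, 1 of 17 at the K end, and 0 of 34 and 0 of 3 in the framework and T segments. The 2 with the knockouts higher and no overlap lay near Tnxb and in Msh5, a meiotic mismatch repair gene, and had unadjusted p of 0.207 and 0.496.

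The 12 windows of smallest p follow, none of which passed the adjusted threshold. The largest difference was in a window of 3 CpGs that lies 4833 bp from Lta, which encodes lymphotoxin alpha, on the side of Nfkbil1 (chr17:35210001-35211000). Its level was 28.2%, 33.7%, 41.0% and 28.02% in knockout mice and 63.8%, 46.6%, 60.5% and 57.6% in control mice. All 4 knockouts were below all 4 controls, and control 34 was the closest of the controls to them. The means were 32.7% ± 6.11 and 57.1% ± 7.44 (SD, n = 4 each), a difference of -24.4 points (unadjusted p = 0.000134, adjusted p = 0.403, quasi-binomial model with moderated dispersion). The exact two-sided permutation test over 70 arrangements gave p = 0.0286, which is the smallest that 4 against 4 mice allow. Any window whose groups do not overlap gives this value, and it is not adjusted for the choice of this window among those tested. No other RefSeq gene is listed between Lta and Nfkbil1 in this place, and each mouse had 753 to 1802 reads on the 3 CpGs. Over the 18 alternatives that gave a value for this window the difference ranged from -27.9 to -22.2 points and the adjusted p from 0.0661 to 0.999.

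All 3 CpGs of that window were lower in the knockouts on average. At 35210411 the knockouts stood at 44.0%, 49.2%, 40.4% and 47.0% and the controls at 76.1%, 73.2%, 78.1% and 83.1%. At 35210447 they stood at 15.9%, 14.6%, 27.3% and 14.2% against 50.9%, 40%, 44.4% and 46.7%. Both of these CpGs separated the groups fully. At 35210485 the means were 49.8% and 62.2% and the mice overlapped. The CpG at 35210447 had the smallest p of the 1000 MHC CpGs tested singly (unadjusted p = 1.65e-05, adjusted p = 0.105, same model). None of these 1000 passed an adjusted p of 0.05, while 24 of 240368 CpGs over all autosomes (0.00998%) did, and 77 had an unadjusted p under 0.05, 55 lower and 22 higher, against 6.32% of all CpGs. Without knockout 45 the adjusted p at 35210447 was 0.00206 and without control 34 it was 0.0464, and over the 12 alternatives run on CpGs it ranged from 0.00206 to 0.492.

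**Figure D4:**
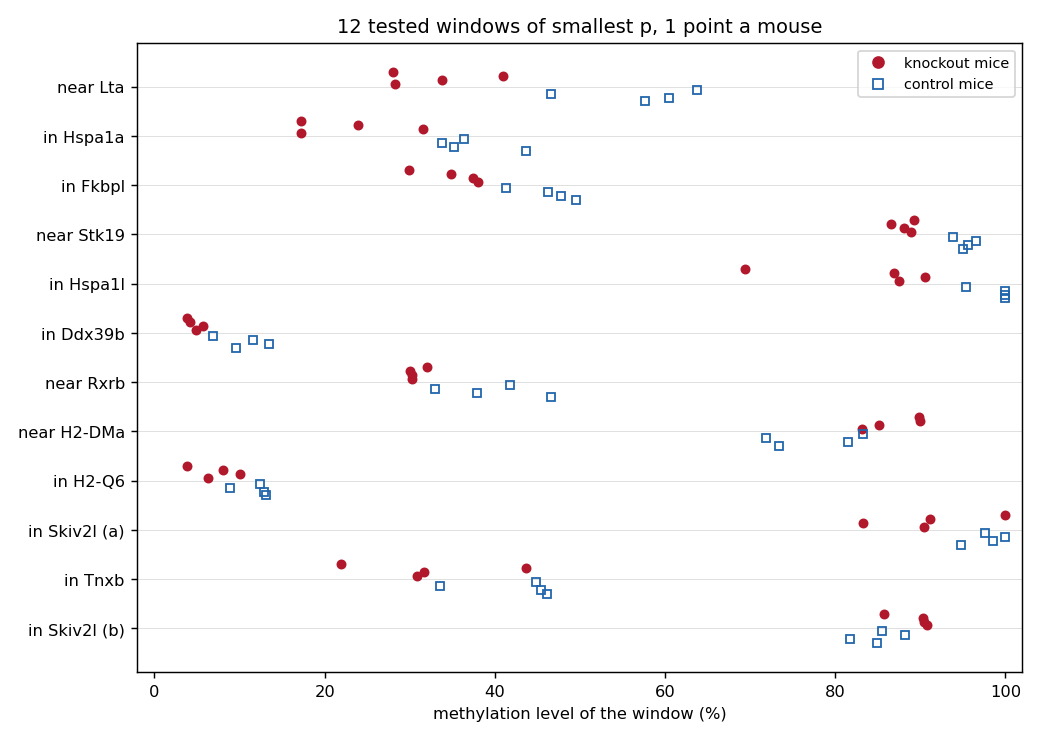
Methylation level (%) in each of the 8 mice for the 12 tested MHC windows of smallest p, ordered by p from the top, with filled circles for knockout and open squares for control mice. In the first 7 windows the knockouts lie fully below the controls, and in the others the mice overlap.

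The heat-shock genes of class III came next. In Hspa1a, an inducible heat-shock chaperone, a window of 7 CpGs inside the gene (chr17:34970001-34971000) had 17.2%, 31.5%, 23.9% and 17.2% in knockout mice and 36.4%, 33.8%, 35.2% and 43.7% in control mice. The means were 22.4% ± 6.82 and 37.2% ± 4.41 (SD, n = 4 each; adjusted p = 0.571, quasi-binomial model with moderated dispersion), and 6 of the 7 CpGs were lower in the knockouts. Hspa1b is a near-identical neighbouring copy, and its window at the same distance from the start, 1628 bp, had 13.6% ± 13.8 against 23.0% ± 5.59. Reads may have been placed on either copy, so both values are uncertain. Hspa1l, the related chaperone made mainly in testis, had a window of 7 CpGs (chr17:34978001-34979000) at 87.6%, 90.5%, 86.9% and 69.4% in the knockouts. The controls stood at 95.3%, 100%, 100% and 100%, so every knockout was lower, by 15.2 points on average (adjusted p = 0.631, same model). Each CpG of this window had only 30 to 122 reads per mouse. The largest differences were -53.1 points at 34978432 and -26.9 points at 34978477, while 34978453 was at 100% in every mouse.

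**Figure D5:**
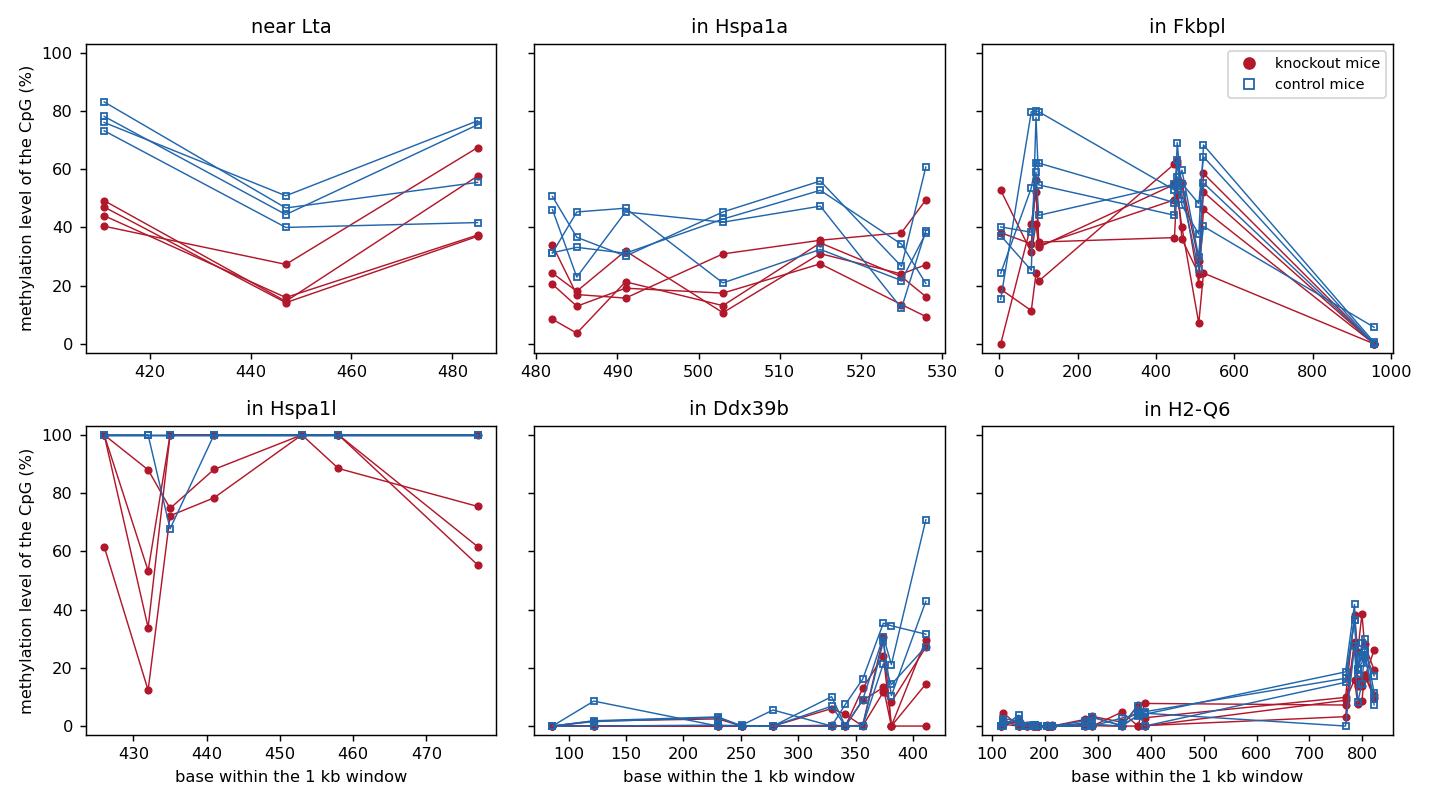
Methylation level (%) of each CpG measured in all 8 mice against its base within the 1 kb window, for 6 of the 12 windows, with 1 line a mouse, red circles for knockout and blue squares for control mice. The base axis covers only the measured CpGs and differs between panels. Near Lta 2 CpGs separate the groups, in Hspa1a 6 of 7 CpGs are lower in the knockouts on average, and in H2-Q6 the methylated CpGs all lie at the end of the window.

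Other class III windows differed by less. In Fkbpl, an immunophilin-like gene, a window of 10 CpGs had 38.0%, 37.4%, 34.9% and 29.9% in knockout mice and 41.3%, 46.3%, 47.8% and 49.6% in control mice (adjusted p = 0.571, quasi-binomial model with moderated dispersion). It also holds a promoter CpG of Atf6b, a transcription factor of the endoplasmic reticulum stress response. That CpG, at 34646956, was at 0% in all 4 knockouts and averaged 1.56% in control mice. The difference of the window lay in its other CpGs. A window 9365 bp from Stk19 had 88.9%, 88.0%, 86.6% and 89.2% against 93.8%, 96.5%, 95.6% and 95.01%. With its reads summed the groups were narrow, with means of 88.2% ± 1.18 and 95.2% ± 1.15 (SD, n = 4 each; adjusted p = 0.571, same model). Its single CpGs spread more widely. All 5 were lower in the knockouts on average, but at each of them the mice of the groups overlapped. At 34814275, for example, the means were 75.8% ± 7.40 and 90.7% ± 13.1 (SD, n = 4 each). Tnxb had a window at 32.0% ± 8.91 in knockout mice and 42.5% ± 6.00 in control mice, where control 34 at 33.5% lay among the knockouts. Skiv2l, an RNA helicase of the cytoplasmic exosome pathway, had 2 of the 12 windows, 1 with the knockouts lower (91.2% against 97.7%) and 1 with the knockouts higher (89.3% against 85.1%). These neighbouring windows of Skiv2l thus lay in opposite directions.

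At Ddx39b, an RNA helicase for splicing and mRNA export in the TNF cluster, 11 CpGs inside the gene (chr17:35243001-35244000) had 4.84%, 5.74%, 4.19% and 3.79% in the knockouts. The controls had 6.94%, 11.6%, 13.4% and 9.54%, all above the knockouts. The means were 4.64% ± 0.851 and 10.4% ± 2.79 (SD, n = 4 each; adjusted p = 0.631, quasi-binomial model with moderated dispersion). At the K end, a window of 15 CpGs that lies 63 bp from Rxrb, a retinoid X receptor, and 401 bp from the start of Col11a2 had 30.2%, 30.3%, 30.0% and 32.0% in knockout mice and 41.8%, 32.9%, 37.9% and 46.6% in control mice. The knockouts lay close together, at 30.6% ± 0.923, and the controls spread more widely, at 39.8% ± 5.82 (SD, n = 4 each; adjusted p = 0.631, same model).

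In class II, a window 402 bp from H2-DMa was higher in the knockouts, at 83.2%, 85.1%, 89.9% and 89.8% against 83.3%, 71.9%, 81.5% and 73.4%. Its means were 87.0% ± 3.39 and 77.5% ± 5.71 (SD, n = 4 each), and the lowest knockout and the highest control met (adjusted p = 0.631, quasi-binomial model with moderated dispersion). The H2-Q6 window named above had 6.25%, 10.1%, 8.05% and 3.82% in knockout mice and 12.4%, 8.88%, 12.9% and 13.1% in control mice. Its first 15 CpGs were near 0 and its last 6, towards position 35425822, held the methylation. With reads summed the H2-Q6 difference was -4.77 points, and with each of the 21 CpGs given the same weight it was -0.985 points, so the size of this difference depended on the weighting. In 125 of the 156 tested windows the difference kept its sign under equal weights.

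The windows that varied most between mice held few CpGs. The largest SD over the 8 mice was 20.9 points, in a window of 3 CpGs that lies 7334 bp from Cyp21a1, a steroid hydroxylase gene, where knockout 28 stood at 34.9% and the other 7 mice between 71.3% and 100%. That window had 49 to 184 reads per mouse. A window of 3 CpGs 15438 bp from Pou5f1 had an SD of 19.9 points, with knockout 46 at 96.2% and the other knockouts at 40.9%, 47.2% and 61.8%. The window near Lta was next, and windows in Ddr1 and in Mucl3, a mucin-like gene, followed with 14.3 and 13.3 points. In the Ddr1 window knockouts 25 and 46, at 15.0% and 26.6%, were the lowest mice, while knockout 28 at 55.9% was the highest. The median SD over the 8 mice was 5.10 points in the tested MHC windows and 5.64 points in all tested windows.

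Genes of the same pathways outside the MHC were read from the same fit, with 6.5% of all tested windows at an unadjusted p under 0.05 as the background. Of 24 antigen-presentation genes elsewhere, 23 had windows, 59 in all, and of the 24 windows in the tested range 0 had an adjusted or an unadjusted p under 0.05, a share that so few windows cannot set apart from the background. B2m, the light chain of class I, had a window at 0.193%. Nlrc5, the transactivator of class I genes, had its lowest window at 0.202% and its other windows between 90.6% and 96.9%. Ciita, the transactivator of class II genes, had 5 windows between 87.2% and 99.0%. Of 22 genes for TNF and lymphotoxin receptors and their signalling, 21 had 76 windows, of which 19 were tested, 0 passed the adjusted threshold and 1, in the kinase gene Map3k7, had an unadjusted p under 0.05, a share (5.26%) near the background. The receptor genes Tnfrsf1a and Ltbr had lowest windows at 0.0657% and 0.121%.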

How the data were processed

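Enhanced reduced representation bisulfite libraries of stem cells from 4 knockout and 4 control mice were deposited as tables of cytosines. Per the file headers, the deposited coverage counts the reads on a cytosine, none with a count under 10, and the authors' percent values give how many of these show C and how many show T. CASAVA 1.8.2, Bismark and mm10 are named in the submitters' processing notes. The handling of duplicate reads and of reads with several matches was not given in the sources used here.

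Methylated reads were recovered as coverage times percent, rounded to whole reads, and the strands of a CpG were merged. A window's reads are the sum over its CpGs. A two-group quasi-binomial model was fitted to all 40021 autosomal windows with a mean level of 5 to 95%, and likewise to single CpGs. In R 4.3.3, squeezeVar from limma 3.58.1 moderated the dispersion, which was kept at 1 or more. P-values were adjusted by Benjamini-Hochberg, with a threshold of 0.05. The model was also run on simulated data, but the outcome is not given here and no reading of the results rests on it. For single windows an exact permutation test (two-sided, 70 arrangements of the mice) was run as well. Alternatives included edgeR 4.0.16 and limma on log2 ratios with 1 read added. Depth was a median of 226 to 321 reads per CpG. Reads carry no molecular identifiers, so they are not independent molecules and the spread between mice is the measure of error.

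Named windows were the 12 of smallest p, the 5 of largest SD, for each of 34 named genes the window with the most CpGs, and the 3 highest and 3 lowest of each of 7 segments as ranges. The members, lists and tests were chosen with earlier results of these data known. Gene positions, promoters and strands came from RefSeq tables for GRCm38.p6. Exons, introns and untranslated regions were not told apart, and the sequences of windows outside promoters were not used here.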

Additional observations from a re-analysis of the deposited data

Results flagged for a closer look

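In groups of 4 mice, 13 of 86 groups held 1 mouse far from the other 3 by Dixon's criterion, which chance meets in about 1 of 20 groups. That rate is no yardstick for the 13, because the groups include windows named for their large spread between mice and the means of the whole region and of segments within it. Of these, 5 concerned control 34, the mouse with the lowest coverage of methylated relative to unmethylated CpGs. It was the lowest control in the mean over the MHC windows (47.7%, against 49.3% to 49.6%), in the mean over class III (52.4%, against 54.0% to 54.4%), and in the windows of Tnxb (33.5%, against 44.8% to 46.2%), H2-Q6 (8.88%, against 12.4% to 13.1%) and Ddr1 (33.6%, against 49.5% to 50.9%). The part of its coverage in these values was not tested.

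Among the knockouts, knockout 28 stood at 34.9% in the window near Cyp21a1, where the others were at 93.5% to 100%, and at 0.336% in the H2-Q4 window, where the others were at 0.0340% to 0.0850%. Knockout 46 was the lowest in the Skiv2l window that was higher in knockouts (85.7%, against 90.3% to 90.8%), and the highest near Rxrb (32.0%, against 30.0% to 30.3%) and at Tap2 (0.285%, against 0.0399% to 0.0683%).

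The remaining values were in controls. Control 1 was at 95.3% in the Hspa1l window, where the other 3 were at 100%, and at 1.26% in the window chosen for H2-DMa, where the others were at 0.109% to 0.189%. Control 37 was at 1.26% at Tap2, where the others were at 0.0741% to 0.121%.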

How the results depend on the processing

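No MHC window passed an adjusted p of 0.05 under any of the 20 alternatives run. Over all autosomes, 0 to 29 windows passed when 1 mouse was left out, 6 without knockout 25 and control 34, and 3 with the CpGs of a window weighted equally, against 0 in the main fit. The equal-weight alternative also replaced the quasi-binomial model by limma on log2 ratios of the levels. Its counts therefore do not show the effect of the weighting alone. The 16 MHC windows with an unadjusted p under 0.05 became 11 to 22 when 1 mouse was left out, 9 with CpGs weighted equally, 9 with levels limited to 10 to 90%, 9 with edgeR and 10 with limma. When 1 mouse was left out, the share of all tested windows went from 6.5% to between 4.497% and 8.31%. With equal weights, levels of 10 to 90%, edgeR and limma it was 4.35%, 7.09%, 3.81% and 4.83%. The MHC count and this share did not always move the same way. Without knockout 25 the count fell to 11 while the share rose to 7.10%. With levels of 10 to 90% the 9 were of 88 tested MHC windows (10.2%). With no limit on the mean level the count was 21 of 344 MHC windows (6.10%), against 6.55% of all windows. The 24 CpGs called over all autosomes became 3 to 139 when 1 mouse was left out, 37 at 20 or more reads, 1 without the CpGs of highest coverage, and 0 with the unmoderated model, which called 0 windows too. Of MHC CpGs, 0 to 2 passed when 1 mouse was left out: 35210447 without control 34, and without knockout 45 also 34062555 in Col11a2. The mean difference of the MHC windows stayed between -1.02 and -0.382 points when 1 mouse was left out. The 12 windows of smallest p kept their direction under every alternative that gave a value. Part of this was fixed in advance. The unmoderated model, edgeR, limma and the limits on the mean level use the same difference. Leaving out mice cannot reverse a window whose groups do not overlap. The difference near Cyp21a1 changed sign, between -5.79 and 15.9 points when 1 mouse was left out and -3.75 points without knockout 25 and control 34, and that in Mucl3 lay between -2.96 and 9.60 points when 1 mouse was left out and at -0.201 points with CpGs weighted equally. The cause of these changes was not tested. Counting only reads showing C or T, and the TNF cluster without its leading window, were chosen after seeing the data. No paired analysis was possible because each replicate number names a single mouse and none occurs in both groups.

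Windows rest on 32 to 120 reads in the shallowest window of each mouse, on 3 CpGs in 67 windows, and on 4 mice a group, which limits the precision of each level.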
